A study of Homo sapiens with 18 samples.

Results

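The retinoic acid pathway was followed through 9 genes, chosen by symbol in the count tables of 3 Ewing sarcoma cell lines out of 58336 gene identifiers. They were the retinaldehyde dehydrogenases ALDH1A1, ALDH1A2 and ALDH1A3, the binding proteins CRABP1 and CRABP2, the receptors RARA, RARB and RARG, and the hydroxylase CYP26B1. Each of the 9 symbols was found in every table. Retinoic acid is made from vitamin A: retinol is oxidised to retinaldehyde by retinol dehydrogenases, and retinaldehyde is oxidised to retinoic acid by the ALDH1A enzymes. In the cell, CRABP proteins carry the acid, retinoic acid receptors bound to DNA with RXR partners change the transcription of target genes in response to it, and CYP26 enzymes break it down. The pathway is known for patterning the embryo and for the differentiation of neural and mesenchymal cells.

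The lines, A673, TC-32 and TC-71, are of Ewing sarcoma, which arises in bone or soft tissue, and carry a fusion of EWSR1 to the ETS factor gene FLI1. In each line, 3 libraries came from cells reverse transfected with a small interfering RNA (siRNA) against FLI1, called siFLI1, and 3 from cells given the negative control siNeg, both at 20 nM. The 18 libraries formed 6 groups: TC-32 siNeg, TC-32 siFLI1, TC-71 siNeg, TC-71 siFLI1, A673 siNeg and A673 siFLI1. All groups received the same transfection reagent and were grown with fetal bovine serum, TC-32 and TC-71 in RPMI medium and A673 in DMEM. The column names give 48 h for TC-32 and TC-71 and no time for A673. siFLI1 reaches the fusion transcript and any unfused FLI1, a single siRNA was used, and each line is a single model of the disease. Nothing states that replicates came from separate cultures, so p-values measure the spread between these libraries, which may be technical. The tables of the lines were quantified separately, TC-71 with another counter, so line, medium, table and counter cannot be told apart.

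Total counts per library were 24102487 to 33669271 in TC-32, 19685354 to 37234528 in TC-71 and 114564479 to 120993595 in A673. Given siFLI1, TC-32 went from 45.2 ± 2.46 to 22.1 ± 0.465 CPM of FLI1 (counts scaled to the library total, SD, n = 3 per group), TC-71 from 50.9 ± 2.61 to 18.3 ± 1.43 and A673 from 76.2 ± 0.733 to 17.95 ± 0.350. The log2 fold changes of FLI1 were -1.03 (standard error 0.0637), -1.47 (standard error 0.0684) and -2.09 (standard error 0.0419), with edgeR adjusted p = 1.85e-13, 8.88e-18 and 2.02e-16. Of 8 markers of Ewing sarcoma, 7 held over 3 counts in 18 of 18 libraries, and CD99, listed at 0 in TC-71, did so in 12 of 18. The tested markers fell with siFLI1, 8 of 8 in TC-32 and in A673 and 7 of 7 in TC-71. Among markers of other cells, the blood genes CD3E and PTPRC reached at most 1 and 10 counts, and the epithelial EPCAM at most 27. The epithelial cadherin CDH1 reached 152 counts, the endothelial PECAM1 66 and CDH5 198. In TC-32 CDH1 rose from 0.162 ± 0.0427 to 4.44 ± 0.694 CPM and CDH5 from 0.281 ± 0.135 to 1.39 ± 0.118 CPM, while PECAM1 fell from 2.10 ± 0.311 to 0.433 ± 0.224 CPM. In A673 CDH5 rose from 0.378 ± 0.0800 to 1.58 ± 0.153 CPM and PECAM1 fell from 0.483 ± 0.0696 to 0.224 ± 0.0720 CPM, with edgeR adjusted p = 1.54e-08 and 0.00136. TC-71 held 0 counts of PECAM1 over 3 siNeg libraries and 28 over 3 siFLI1 libraries, 5 and 27 of CDH1, and 4 and 5 of CDH5, and A673 held 2 and 14 of CDH1, too few to be tested. EPCAM passed the test in no line. The part of these markers in the changes of the retinoic acid genes was not tested. As RNA came from whole cultures, fewer cells with a transcript and less transcript per cell cannot be told apart.

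The members lie on 7 chromosomes in GENCODE release 44 (GRCh38), the source of all positions given here, and 5 of the 9 share no exon bases with another gene. Stretches before RefSeq transcription starts (GRCh38.p14) are shown for 4 genes: RARB, called higher in all 3 lines, CRABP2 and ALDH1A3, with the highest fitted rises in TC-32, and CYP26B1, the most abundant member in TC-71 siNeg. They are printed with capitals where the letters match the receptor hexamer AGGTCA or a variant of it (GGGTCA, as in a RARA window, AGTTCA, as in one of ALDH1A2, or GGTTCA, as in that of CRABP2). They were cut where a GENCODE exon begins, and RARB is shown only by its direct repeat with flanking bases.
RARB (chr3:25428204-25428233, plus strand): gggtagGGTTCACCGAAAGTTCActcgcat
CRABP2 (chr1:156705817-156706034, minus strand): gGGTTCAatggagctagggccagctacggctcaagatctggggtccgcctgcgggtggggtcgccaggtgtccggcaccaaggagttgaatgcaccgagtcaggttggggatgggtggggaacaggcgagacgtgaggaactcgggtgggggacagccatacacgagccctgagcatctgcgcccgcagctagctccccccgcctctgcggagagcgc
ALDH1A3 (chr15:100879581-100879812, plus strand): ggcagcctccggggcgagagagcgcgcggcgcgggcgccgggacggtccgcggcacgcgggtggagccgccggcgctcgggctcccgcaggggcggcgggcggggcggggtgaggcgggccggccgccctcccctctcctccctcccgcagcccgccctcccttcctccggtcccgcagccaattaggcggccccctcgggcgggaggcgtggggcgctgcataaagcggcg
CYP26B1 (chr2:72147863-72148112, minus strand): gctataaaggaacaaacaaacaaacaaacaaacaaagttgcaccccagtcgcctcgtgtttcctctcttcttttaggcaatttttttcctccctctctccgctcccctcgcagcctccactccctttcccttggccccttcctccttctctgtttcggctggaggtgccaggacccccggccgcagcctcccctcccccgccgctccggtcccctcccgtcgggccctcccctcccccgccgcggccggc
Retinoic acid receptors paired with RXR are known to bind direct repeats of such hexamers spaced by 1, 2 or 5 bases. In the 250 bases before each start, searched on both strands, a repeat spaced by 5 stood in 26 of 35116 RefSeq windows, or 0.074%. Among the 15 windows of the 9 members, it stood in 1, that of RARB, where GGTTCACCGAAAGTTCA covers chr3:25428210-25428226, from 53 to 37 bases before the start. Annotated untranslated regions of 3 GENCODE transcripts also hold these 17 bases. A repeat spaced by 1 stood in 0.0968% of all windows, a repeat spaced by 2 in 0.0313%, and neither in a member's. A single hexamer is common: it stood in 33.8% of all windows and in 6 of the 15, those of ALDH1A2, CRABP2, RARA and RARB, and each direct repeat holds a pair of them. The ETS factor sequence GGAAGGAA stood in 3.06% of windows and in 0 of the 15. A match is a run of letters and no measured binding, and the counts per gene do not tell which of the 4 RefSeq starts of RARB was used.

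In TC-32, siFLI1 was followed by higher transcripts of 8 of the 9 genes and lower ALDH1A1. ALDH1A3, CRABP2, ALDH1A2 and RARB changed most, and of these ALDH1A3, ALDH1A2 and RARB were scarce in siNeg. All 9 passed the test at an adjusted p under 0.05, where 81.4% of the 16227 genes tested did (41.3% higher, 40.1% lower), and siFLI1 lay clear of siNeg for 9 of 9, against 82.6% of all genes. In TC-71, RARB, ALDH1A1, RARA and RARG rose, CYP26B1, ALDH1A3 and CRABP1 fell, CRABP2 did not pass the test and ALDH1A2 held 0 counts throughout. These 7 calls among 8 genes tested stand beside 71.9% of 17085 genes (36.8% higher, 35% lower), and 6 of the 8 did not overlap, against 73.8%. In A673, RARB, CRABP2, ALDH1A3, ALDH1A2, ALDH1A1 and CRABP1 rose, and CYP26B1, RARA and RARG fell. All 9 passed the test there, where 71% of 18444 genes did (35.6% higher, 35.4% lower), and 9 of 9 did not overlap, against 73.6%.

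Since most genes of each line were called, the size of the changes was set beside that of all genes. The median absolute log2 fold change of the members was 1.32 (TC-32), 1.01 (TC-71) and 1.40 (A673), beside 0.73, 0.47 and 0.42 over all genes tested. Their median signed log2 fold change was 1.32, 0.14 and 0.80, beside 0.022, 0.018 and -0.0066. RARB in every line, and ALDH1A2 in TC-32 and A673, passed the filter on low counts through their siFLI1 libraries, so they had to rise to be tested. With genes of that kind left out of both sides, a choice made after the values were seen, the median absolute log2 fold change was 0.91, 0.93 and 0.80 for the 7 other members tested in each line, beside 0.64, 0.44 and 0.39 for all other genes. The median signed value of those members was then 0.86, 0.057 and 0.41, beside -0.10, -0.037 and -0.039.

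**Figure D1:**
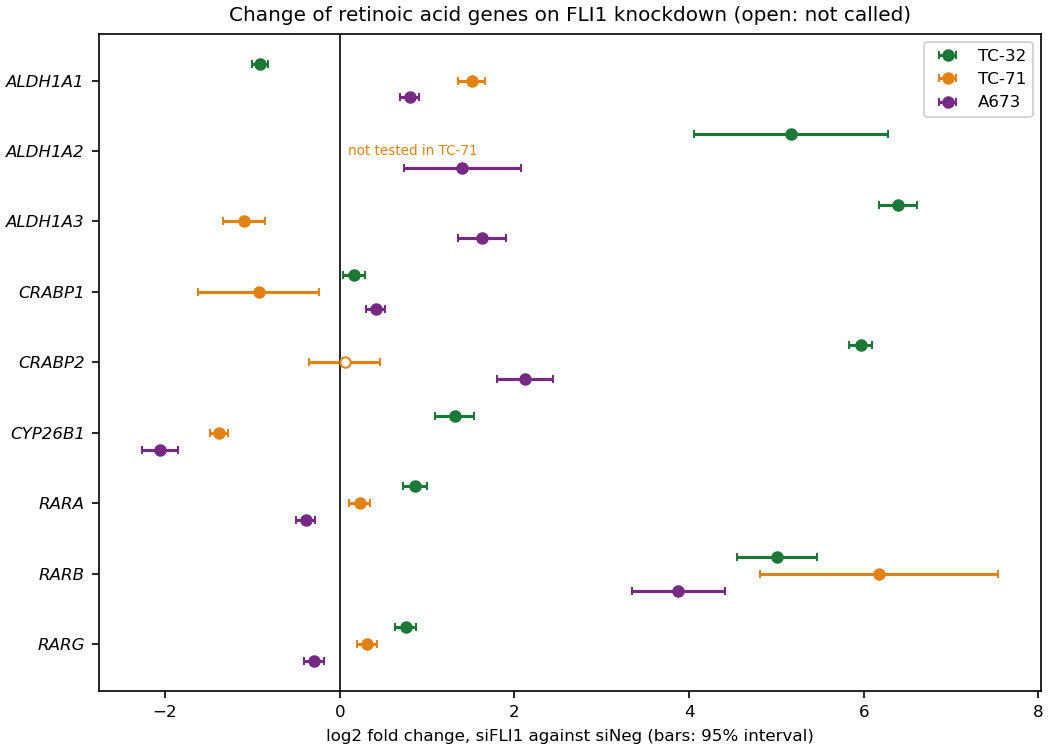
Log2 fold change of each of the 9 genes, siFLI1 against siNeg, in TC-32, TC-71 and A673 (3 libraries per group), with points for the edgeR estimate, bars for its 95% interval and an open point where the test was not passed. RARB lies right of 0 in all 3 lines, while ALDH1A1, ALDH1A3, CRABP1, CYP26B1, RARA and RARG each have lines on both sides of 0.

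ALDH1A1 (ENSG00000165092.12, chromosome 9, 72900671 to 73080442) encodes a retinaldehyde dehydrogenase that is also used as a marker of stem-like cells. In TC-32, the siNeg libraries held 439, 458 and 432 CPM and the siFLI1 libraries 254, 224 and 228.8. In TC-71, 15.2, 11.7 and 13.4 CPM in siNeg stood against 39.9, 36.6 and 39.0 in siFLI1. In A673 the levels were 8.69, 8.62 and 9.55 CPM, and 15.6, 15.5 and 15.7. Every siFLI1 library was therefore below siNeg in TC-32 and above it in the other lines. In TC-32, ALDH1A1 fell by 0.91 on the log2 scale (standard error 0.0461, edgeR adjusted p = 4.79e-15). It rose by 1.51 in TC-71 (standard error 0.0792, edgeR adjusted p = 1.55e-16) and by 0.80 in A673 (standard error 0.0569, edgeR adjusted p = 2.28e-09). After the fall, TC-32 still held more ALDH1A1, in CPM, than either other line.

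ALDH1A3 (ENSG00000184254.16, chromosome 15, 100877714 to 100916626) encodes the retinaldehyde dehydrogenase known from the developing eye and nose and from mesenchymal glioma cells. The siNeg libraries of TC-32 held 0.670, 1.17 and 0.800 CPM and the siFLI1 libraries 73.4, 78.7 and 72.4. This was a log2 change of 6.39 (standard error 0.111, edgeR adjusted p = 2.18e-24), the largest of any member in any line outside groups of 3 counts or fewer. In TC-71 the order was the other way: 9.54, 12.7 and 10.3 CPM in siNeg and 5.32, 5.47 and 4.44 in siFLI1. ALDH1A3 fell there by 1.10 on the log2 scale (standard error 0.12, edgeR adjusted p = 2.56e-09). In A673, 0.832, 0.664 and 0.877 CPM in siNeg stood against 2.36, 2.80 and 2.19 in siFLI1, a log2 change of 1.63 (standard error 0.138, edgeR adjusted p = 2.22e-08). TC-71 thus held the highest ALDH1A3 of the siNeg groups, and TC-32 the highest of the siFLI1 groups. Of the ALDH1A3 exon bases, 32.1% lie opposite exons of ALDH1A3-AS1, which reached 36 counts in a TC-32 siNeg library and 341 in a siFLI1 library. In TC-71 and A673 this antisense gene reached 113 and 79 counts in siNeg, and 100 and 83 in siFLI1. Whether counting used the strand is not given, so reads of the pair cannot be told apart here.

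ALDH1A2 (ENSG00000128918.14, chromosome 15, 57953424 to 58497866) encodes the retinaldehyde dehydrogenase that supplies most retinoic acid in the early embryo. In TC-32 the siNeg libraries held 0, 3 and 0 counts and the siFLI1 libraries 54, 44 and 44. The rate in siFLI1 was 40.5 times that in siNeg, with a 95% counting interval from 13.6 to 199 on 3 siNeg counts, and the gene passed the test (edgeR adjusted p = 6.12e-09). Its fitted log2 fold change of 5.16 (standard error 0.565) depends on the prior count, and it reached 8.46 without the siNeg library that held the 3 counts. In A673 the 13, 9 and 8 counts of siNeg stood against 26, 29 and 22 in siFLI1, a log2 change of 1.40 (standard error 0.342, edgeR adjusted p = 0.00157). TC-71 held 0 counts in 6 of 6 libraries, which allows up to 3 counts, or 0.0806 to 0.152 CPM by library, here without the TMM adjustment. A change within that limit was not detectable in TC-71. ALDH1A2 was the least abundant of the ALDH1A enzymes in all 6 groups.

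CRABP1 (ENSG00000166426.7, chromosome 15, 78340353 to 78348225) encodes a cytosolic protein that binds retinoic acid and is known to bring it to degradation. In TC-32, siNeg held 28.1, 30.8 and 30.1 CPM and siFLI1 32.4, 34.8 and 32.8. In A673, siNeg held 30.5, 30.5 and 30.3 CPM and siFLI1 36.9, 44.6 and 40.1. TC-71 had little of it, with 20, 13 and 37 counts in siNeg and 9, 18 and 15 in siFLI1. The siRNAs overlapped in TC-71 and were separate, by small steps, in the other lines. On the log2 scale, CRABP1 rose by 0.17 in TC-32 (standard error 0.0640, edgeR adjusted p = 0.0197) and by 0.41 in A673 (standard error 0.0572, edgeR adjusted p = 7.90e-06). It fell by 0.93 in TC-71 (standard error 0.353, edgeR adjusted p = 0.0198). The TC-71 call was lost with DESeq2 (-0.92, adjusted p = 0.0633) and without siNeg replicate 3 (-0.56, 0.227), siFLI1 replicate 1 (-0.79, 0.0691) or siFLI1 replicate 3 (-0.78, 0.0928). The TC-32 call was lost with no low-count filter (0.15, adjusted p = 0.0592) and without siNeg replicate 1 (0.12, 0.140) or siFLI1 replicate 2 (0.13, 0.0897). Of the CRABP1 exon bases, 45.9% lie opposite another gene, which held at most 3 counts.

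CRABP2 (ENSG00000143320.8, chromosome 1, 156699606 to 156705816) encodes the binding protein that is known to hand retinoic acid to its receptors in the nucleus. In TC-32 the siNeg libraries held 4.35, 4.56 and 4.88 CPM and the siFLI1 libraries 277, 299 and 286. Each siFLI1 library lay far above every siNeg library, and the log2 fold change was 5.96 (standard error 0.0664, edgeR adjusted p = 6.05e-28). In A673, 0.316, 0.394 and 0.363 CPM in siNeg stood against 1.57, 1.74 and 1.36 in siFLI1, a log2 change of 2.12 (standard error 0.162, edgeR adjusted p = 5.73e-09). TC-71 held 1.97, 1.98 and 1.42 CPM in siNeg and 1.55, 2.03 and 1.91 in siFLI1, so the siRNAs overlapped. The log2 fold change there was 0.057 (standard error 0.208, 95% interval from -0.35 to 0.46, edgeR adjusted p = 0.815), and its sign turned without siNeg replicate 3 (-0.11) or siFLI1 replicate 2 (-0.0072). The TC-71 interval covers neither the change of TC-32 nor that of A673. The hexamer GGTTCA of the CRABP2 stretch shown lies at chr1:156706028-156706033, at its far end from the start.

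RARB (ENSG00000077092.18, chromosome 3, 24687887 to 25597932) encodes retinoic acid receptor beta, whose own gene is a textbook target of retinoic acid through a repeat of this kind. In TC-32 the siNeg libraries held 16, 3 and 6 counts and the siFLI1 libraries 303, 368 and 310. In TC-71 they held 0, 1 and 0 counts against 26, 28 and 61, and in A673 10, 7 and 7 against 93, 139 and 113. Every siFLI1 library was above every siNeg library in all 3 lines. The log2 fold change was 5.01 in TC-32 (standard error 0.236, edgeR adjusted p = 2.44e-14) and 3.88 in A673 (standard error 0.269, edgeR adjusted p = 1.65e-09). In TC-71 the rate in siFLI1 was 98.2 times that in siNeg, with a 95% counting interval from 17.3 to 3911 on a single siNeg count (edgeR adjusted p = 1.13e-09). The fitted log2 fold change of TC-71, 6.18 (standard error 0.694), depends on the prior count. The value of TC-32 was 5.89 without siNeg replicate 1, the library with 16 counts, and that of TC-71 was 8.21 without siNeg replicate 2, which held the single count. RARB stayed a scarce receptor after siFLI1, at 10.5 to 11.6 CPM (TC-32), 1.06 to 1.64 (TC-71) and 0.797 to 1.19 (A673).

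RARA (ENSG00000131759.17, chromosome 17, 40309180 to 40357643) encodes retinoic acid receptor alpha, the receptor fused to PML in promyelocytic leukaemia. In TC-32, siNeg held 27.5, 23.0 and 25.5 CPM and siFLI1 42.8, 49.3 and 45.5, a log2 change of 0.86 (standard error 0.0712, edgeR adjusted p = 6.50e-11). In TC-71, 32.1, 34.6 and 34.2 CPM stood against 38.6, 40.1 and 39.4, a log2 change of 0.23 (standard error 0.0605, edgeR adjusted p = 0.00128). In A673, 17.4, 17.3 and 17.5 CPM stood against 12.3, 14.1 and 13.5, a log2 change of -0.39 (standard error 0.0562, edgeR adjusted p = 1.26e-05). The siFLI1 libraries were all higher in TC-32 and TC-71 and all lower in A673. Of the RARA exon bases, 21.4% lie opposite other genes, and those of them in the tables held at most 20 counts.

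RARG (ENSG00000172819.16, chromosome 12, 53210567 to 53232980) encodes retinoic acid receptor gamma, known from skin and cartilage. As for RARA, its siFLI1 libraries lay above siNeg in TC-32 and TC-71 and below it in A673. In TC-32, siNeg held 43.4, 42.7 and 44.4 CPM and siFLI1 65.9, 77.9 and 76.1, a log2 change of 0.75 (standard error 0.0615, edgeR adjusted p = 4.50e-11). In TC-71, 40.5, 37.9 and 43.3 CPM stood against 51.6, 50.9 and 48.8, a log2 change of 0.31 (standard error 0.0593, edgeR adjusted p = 3.27e-05). In A673, 21.3, 19.5 and 19.0 CPM stood against 15.1, 17.3 and 16.4, a log2 change of -0.29 (standard error 0.0600, edgeR adjusted p = 0.000368). Both receptors changed by less than any change of RARB.

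CYP26B1 (ENSG00000003137.8, chromosome 2, 72129238 to 72147862) encodes a hydroxylase that clears retinoic acid and so limits where it acts. In TC-32 the siNeg libraries held 3.64, 3.77 and 4.25 CPM and the siFLI1 libraries 9.93, 9.24 and 9.95. In TC-71, siNeg held between 159.7 and 163 CPM, and siFLI1 67.6, 59.2 and 59.0. In A673, 6.51, 7.11 and 6.98 CPM stood against 1.43, 1.97 and 1.55. CYP26B1 was thus higher with siFLI1 in TC-32 and lower in both other lines, with no overlap in any. On the log2 scale it rose by 1.32 in TC-32 (standard error 0.113, edgeR adjusted p = 1.17e-10). It fell by 1.38 in TC-71 (standard error 0.0514, edgeR adjusted p = 3.60e-20) and by 2.06 in A673 (standard error 0.104, edgeR adjusted p = 2.76e-11). In TC-71 siNeg it was the most abundant transcript of the 9, per length as well as in CPM.

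**Figure D2:**
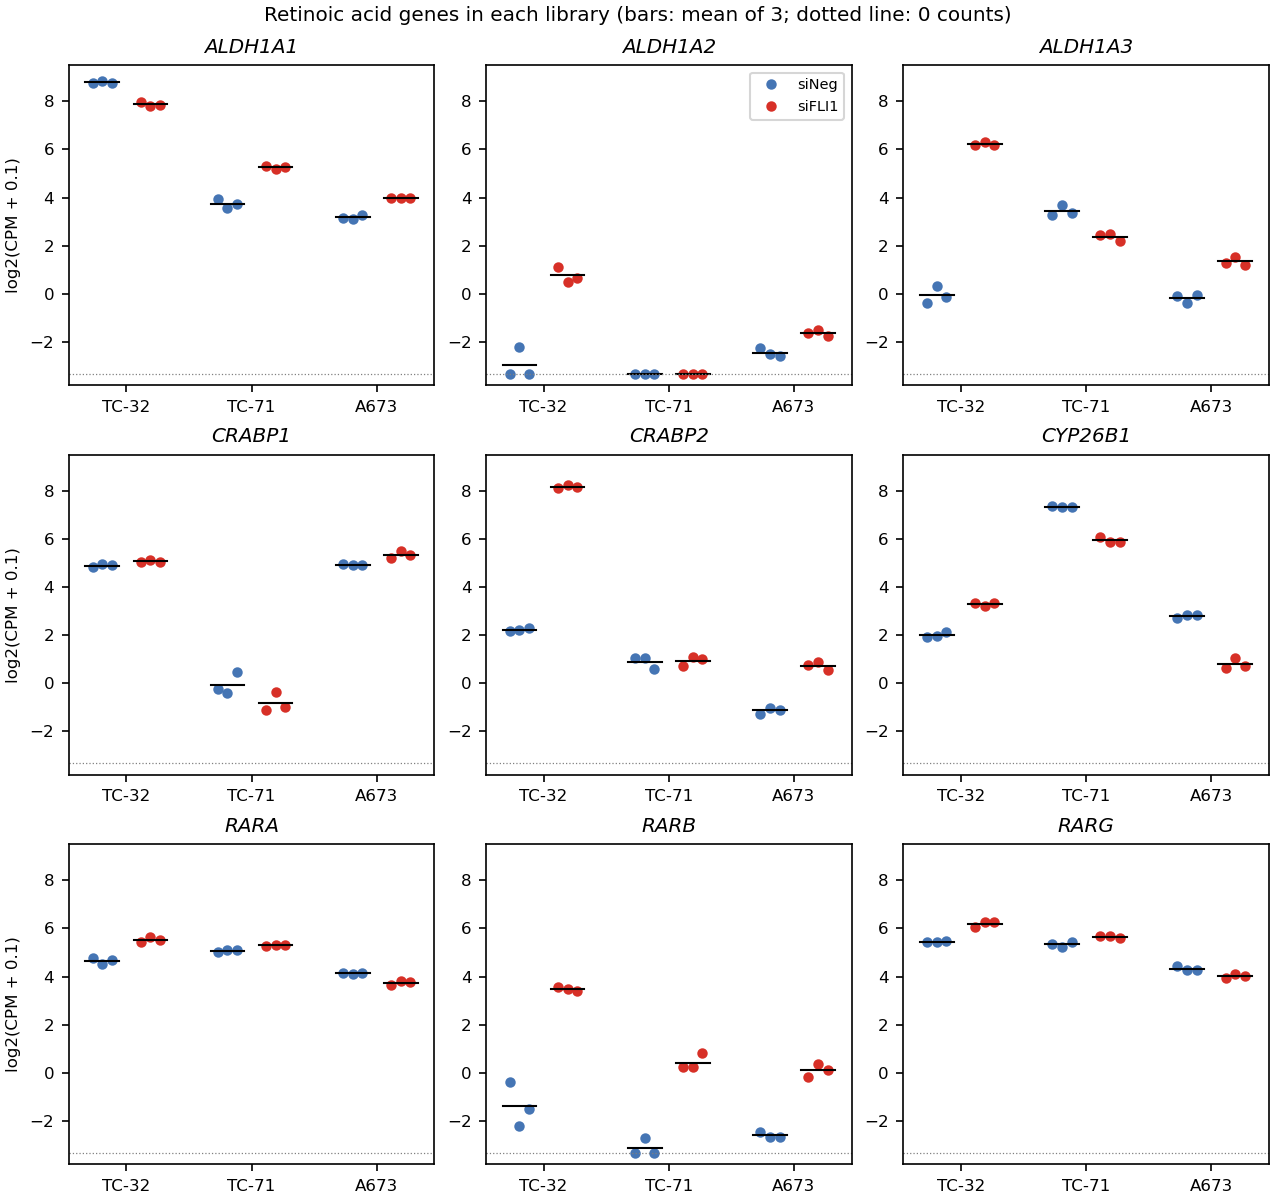
Level of each of the 9 genes in each of the 18 libraries, as log2(CPM + 0.1), with a panel per gene, points for libraries, bars for the mean of 3 and a dotted line at 0 counts. The siFLI1 points of RARB lie above the siNeg points in all 3 lines, and those of ALDH1A3 and CYP26B1 lie on opposite sides of siNeg in TC-32 and TC-71.

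To compare genes with each other, levels were expressed per kilobase of merged exon (RPKM), which understates a transcript that uses few of a gene's exons. In TC-32 siNeg, ALDH1A1 led at 156 ± 4.82 RPKM (SD, n = 3 per group here and below), then CRABP1 at 31.0 ± 1.44 and RARG at 8.49 ± 0.171. In TC-32 siFLI1, CRABP2 led at 265 ± 10.0, above ALDH1A1 at 82.97 ± 5.75 and CRABP1 at 34.8 RPKM. The libraries of RARG and ALDH1A3 overlapped there, at 14.3 and 14.0 RPKM. In TC-71 siNeg, CYP26B1 led at 33.3 RPKM, above RARG at 7.91, RARA at 7.09 and ALDH1A1 at 4.72. In TC-71 siFLI1, ALDH1A1 at 13.6 and CYP26B1 at 12.8 RPKM overlapped at the top. A673 was led by CRABP1 in both groups, at 31.8 RPKM in siNeg and 42.2 in siFLI1, and the next level was 3.89 for RARG in siNeg and 5.50 for ALDH1A1 in siFLI1. Among the siNeg groups, the lines therefore differed in which member was most abundant, a description that carries no test. The ranking covers the members only and leaves out other retinoid genes.

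Within the CRABP pair, the share of CRABP2 in the summed RPKM went from 12.1 ± 0.477% to 88.4 ± 0.114% in TC-32, and their sum from 35.2 ± 1.61 to 300.2 ± 11.3 RPKM. In A673 the share of CRABP2 was 1.03 ± 0.112% and 3.30 ± 0.351%, and in TC-71 64.1 ± 12.7% and 77.3 ± 4.45%. CRABP1 thus made up most of the pair in A673 in both groups and in TC-32 siNeg. Among the ALDH1A enzymes, the share of ALDH1A3 went from 0.105 ± 0.0278% to 14.5 ± 1.23% in TC-32 and from 30.3 ± 5.96% to 6.57 ± 0.826% in TC-71. It was 4.47 ± 0.478% and 7.67 ± 0.951% in A673. The summed ALDH1A level of TC-32 went from 156 ± 4.87 to 97.2 ± 5.51 RPKM, that of TC-71 from 6.76 ± 0.347 to 14.5 ± 0.568 and that of A673 from 3.31 ± 0.195 to 5.98 ± 0.0293. ALDH1A1 held most of that sum in all 6 groups. RARB made up at most 4.67 ± 0.570% of the summed receptors, in TC-32 siFLI1. The receptor sum of TC-32 went from 13.9 ± 0.601 to 25.1 ± 1.86 RPKM, that of TC-71 from 15.0 ± 0.561 to 18.3 ± 0.249 and that of A673 from 7.56 ± 0.240 to 6.08 ± 0.422. Shares and sums are descriptions and carry no test.

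**Figure D3:**
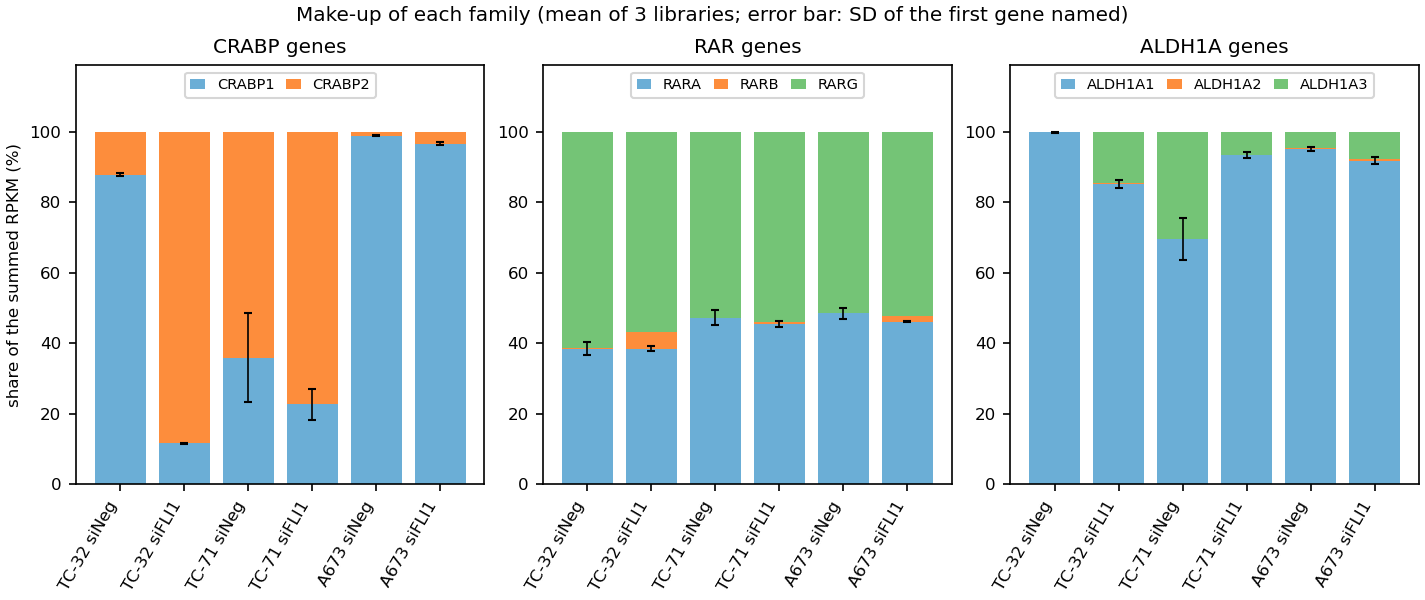
Share of each gene in the summed RPKM of its family (%, mean of 3 libraries, error bar for the SD of the first gene named) for the CRABP, RAR and ALDH1A genes in the 6 groups. CRABP2 takes 88.4% of the CRABP sum in TC-32 siFLI1 and 3.30% in A673 siFLI1, and RARB stays a thin band in every group.

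The lines were then compared in their response. Of the 8 members tested in all 3 lines, RARB was the 1 called in the same direction in each. It passed the filter on low counts through its siFLI1 libraries in each line. RARB therefore had to rise to be tested in the main fit, so its shared direction there is given as description. Over all settings tried, no low-count filter among them, its log2 fold change stayed above 0 in each line. It was 4.55 to 5.89 in TC-32, 5.48 to 8.21 in TC-71 and 3.73 to 4.07 in A673. Over 14233 genes, 18.9% were called higher and 19% lower in all 3. Calls in mixed directions were made for 6 of the 8 (ALDH1A1, ALDH1A3, CRABP1, CYP26B1, RARA and RARG), where 13.7% of those genes had such calls. Of the members called in both lines of a pair, 4 of 9 went opposite ways in TC-32 and A673 (all genes: 23.9% of 9719), 4 of 7 in TC-32 and TC-71 (14.2% of 9335) and 4 of 7 in A673 and TC-71 (19.8% of 8877). CRABP1 was mixed only through its TC-71 call, which was lost under several alternatives. That gene is among the 4 opposite members in both pairs with TC-71. These counts describe the 9 genes and were not tested.

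The difference of the siFLI1 effect between lines was tested for each gene by an interaction contrast over all 18 libraries. The fall of FLI1 itself differed by 1.08 between TC-32 and A673 (edgeR adjusted p = 4.11e-14). It differed by 0.43 between TC-32 and TC-71 (edgeR adjusted p = 6.67e-05) and by -0.65 between A673 and TC-71 (edgeR adjusted p = 1.52e-08). The part of unequal knockdown in the differences of the members was not tested. Between TC-32 and A673, 7 of 9 members differed, 6 higher and 1 lower in TC-32, where 62.1% of 19610 genes did (29.9% higher, 32.2% lower). The effect in TC-32 was higher by 4.79 for ALDH1A3 (standard error 0.219, edgeR adjusted p = 1.92e-19), by 3.88 for ALDH1A2, by 3.87 for CRABP2 and by 3.40 for CYP26B1, all on the log2 scale. The ALDH1A2 value rests on 3 siNeg counts in a single TC-32 library, and without that library (TC-32 siNeg replicate 2) it was 8.25. The effect in TC-32 was also higher by 1.27 for RARA and by 1.07 for RARG, and it was lower for ALDH1A1, with a difference of -1.69. The difference of RARB, 1.18 (standard error 0.534, edgeR adjusted p = 0.0607), did not pass the test, nor did that of CRABP1, -0.22 (standard error 0.0975, edgeR adjusted p = 0.0501). The RARB difference passed with library size alone (1.31, adjusted p = 0.0388), no low-count filter (1.19, 0.0454), DESeq2 (1.17, 0.0244) and limma-voom (1.47, 0.0252). It also passed without TC-32 siNeg replicate 1 (2.09, adjusted p = 0.00303) or A673 siFLI1 replicate 2 (1.34, 0.0313). The CRABP1 difference passed without TC-32 siNeg replicate 1 (-0.25, adjusted p = 0.0403), TC-32 siFLI1 replicate 2 (-0.24, 0.0440) or A673 siFLI1 replicate 1 (-0.28, 0.00745), and over the 12 libraries of these lines alone (-0.29, 0.00519).

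The members with the widest gap between TC-32 and TC-71 were ALDH1A3 and CRABP2. Between TC-32 and TC-71, 7 of 9 members differed, 6 higher and 1 lower in TC-32, where 53.6% of genes did (20.9% higher, 32.7% lower). The effect in TC-32 was higher by 7.48 for ALDH1A3 (standard error 0.189, edgeR adjusted p = 3.21e-26), by 5.89 for CRABP2 and by 2.69 for CYP26B1. The differences were smaller for CRABP1 (1.11), RARA (0.62) and RARG (0.44), and ALDH1A1 went the other way (-2.43). Without TC-71 siNeg replicate 3 the CRABP1 difference no longer passed (0.71, adjusted p = 0.0962). Between A673 and TC-71, 7 of 9 differed again, 3 higher and 4 lower in A673, where 51.6% of genes did (23.2% higher, 28.4% lower). The effect in A673 was higher by 2.69 for ALDH1A3, 2.02 for CRABP2 and 1.33 for CRABP1, and lower for ALDH1A1 (-0.74), CYP26B1 (-0.71), RARA (-0.65) and RARG (-0.64). The RARB difference was -1.33 between TC-32 and TC-71 (standard error 1.46, edgeR adjusted p = 0.385) and -2.52 between A673 and TC-71 (standard error 1.30, edgeR adjusted p = 0.0776). With a single siNeg count in TC-71, these wide errors do not show that RARB responded alike. The latter passed without that count (-5.12, adjusted p = 0.0392), a value that depends on the prior count. ALDH1A2 is counted among the 9 in these pairs and did not pass: with 0 counts in TC-71, the edgeR contrast gave no usable standard error.

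A further 66 retinoid genes gave the members their surroundings: 33 of retinoid supply, 18 receptor partners and cofactors and 20 genes known to respond to retinoic acid, with 5 genes in 2 of these lists. In the supply list, 10 genes rose and 6 fell of 17 tested in TC-32, 4 rose and 6 fell of 17 in TC-71, and 12 rose and 4 fell of 19 in A673. Here and in the lists that follow, such counts stand beside 41.3% of all genes called higher and 40.1% lower in TC-32, 36.8% and 35% in TC-71, and 35.6% and 35.4% in A673. RDH10, which oxidises retinol to retinaldehyde, rose in all 3 lines: TC-32 went from 18.6 ± 0.930 to 227.8 ± 5.20 CPM, TC-71 from 21.2 ± 0.518 to 65.8 ± 1.10 and A673 from 6.12 ± 0.377 to 22.3 ± 0.375. Its log2 fold changes were 3.61, 1.63 and 1.87 (standard error at most 0.0592). DHRS3, which reduces retinaldehyde back to retinol, rose by 0.77, 4.44 and 1.63 in TC-32, TC-71 and A673. In TC-71 DHRS3 held 12 counts over siNeg and 311 over siFLI1. It passed the filter on low counts there through siFLI1, so it had to rise to be tested. RDH11, another retinal reductase, fell by 0.85, 0.31 and 0.32 in the same order of lines. The median log2 fold change of the supply list was 0.77, -0.054 and 0.74, beside 0.022, 0.018 and -0.0066 over all genes tested. Without the genes that passed the filter through siFLI1 it was 0.35, -0.23 and 0.56, beside -0.10, -0.037 and -0.039 for all other genes. STRA6, the membrane receptor for retinol carried in blood, was picked after its values were seen: it rose by 2.41, 5.83 and 0.74.

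Among the receptor partners and cofactors, 9 rose and 7 fell of 17 tested in TC-32, 10 rose and 3 fell in TC-71, and 4 rose and 10 fell in A673, with medians of 0.16, 0.20 and -0.26. Their median absolute log2 fold change, 0.35, 0.24 and 0.36, was below that of all genes tested (0.73, 0.47 and 0.42). PPARD, a nuclear receptor reported to bind retinoic acid delivered by FABP5, rose by 0.82, 0.71 and 0.78. The RXR partners were picked after their values were seen: RXRB changed by 0.58, 0.51 and -0.36, the same signs as RARA and RARG, and RXRA by 0.19, -0.29 and -0.96.

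Of the response genes, 7 rose and 2 fell of 10 tested in TC-32, 7 rose and 2 fell of 10 in TC-71, and 10 rose and 3 fell of 13 in A673. TGM2, a transglutaminase induced by retinoic acid in many cells, rose in all 3: TC-32 went from 1.49 ± 0.128 to 337 ± 18.3 CPM, TC-71 from 1.25 ± 0.252 to 419.8 ± 19.7 and A673 from 2.63 ± 0.0864 to 68.5 ± 4.16. Its log2 fold changes were 7.82, 8.35 and 4.70 (standard error at most 0.0821). The transcriptional repressor gene HIC1 rose by 7.62, 6.31 and 2.50, and the homeobox gene MEIS1 fell by 0.44, 0.15 and 1.07. The TC-71 call of MEIS1 (edgeR adjusted p = 0.0409) was lost in 5 alternatives, with values from -0.15 to -0.11. TFAP2C, an AP-2 factor, rose by 3.73 in A673, where 16 counts in siNeg stood against 209 in siFLI1. The median log2 fold change of the response list was 2.48, 2.78 and 1.07, over the genes that passed the filter. Of these genes, 3 (TC-32), 4 (TC-71) and 3 (A673) had passed it through their siFLI1 libraries, HIC1 in TC-32 and TC-71 and TFAP2C in A673 among them, and each was called higher. Among the rest, 4 rose and 2 fell of 7 in TC-32, and 3 rose and 2 fell of 6 in TC-71. In A673, 7 rose and 3 fell of 10. The medians of the rest were 0.77, 0.95 and 0.55. With genes of that kind left out of all genes tested, 5265 rose and 6505 fell of 14621 in TC-32. Likewise, 5455 rose and 5988 fell of 15949 in TC-71, and 5846 rose and 6531 fell of 17554 in A673. Their medians were -0.10, -0.037 and -0.039. Of the genes not already members, CYP26A1, the inducible retinoic acid hydroxylase, was picked after its values were seen: TC-32 held 7 counts in siNeg and 52 in siFLI1, TC-71 10 and 66, and A673 1 and 9, where it was not tested. The lists were drawn up with results of these data known and share libraries with the members, so their counts stand as description.

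**Figure D4:**
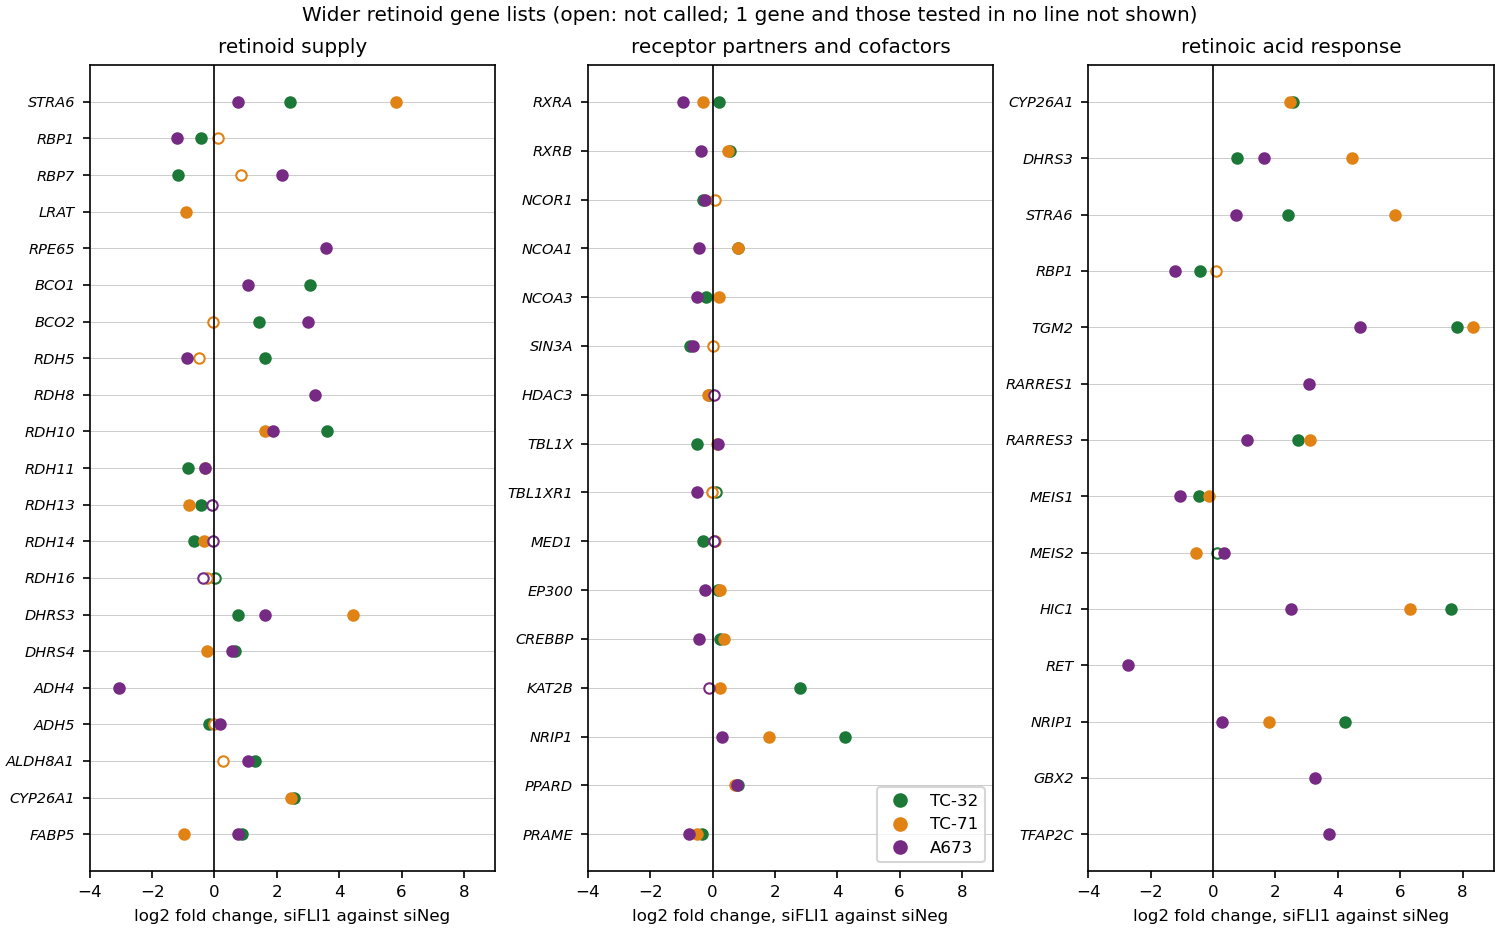
Log2 fold change, siFLI1 against siNeg, of the wider retinoid genes tested in at least 1 line, with 1 gene not shown, by list, with a colour per line and open points where the test was not passed. TGM2 and HIC1 lie far right in TC-32 and TC-71, and the A673 points of most receptor partners lie left of 0.

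Genes with a response like that of the members of largest change were looked for among 11066 genes. These were tested in all 3 lines and had a mean log2 CPM of at least 1 in each. The measure was the Euclidean distance between the 3 log2 fold changes of gene and member. Nearest to RARB were CREB3L1, at a distance of 0.697, CNN1, at 0.857, and RP1-140K8.5, at 1.17. The TC-71 value of RARB rests on 1 siNeg count and ranged from 5.48 to 8.21 over the settings tried. The order of these neighbours is therefore not settled. CREB3L1, a membrane-bound transcription factor, changed by 5.47, 5.69 and 3.69 (TC-32, TC-71, A673), and CNN1, the smooth muscle protein calponin, by 4.34, 6.15 and 4.41. Nearest to CRABP2 were TIMP3 (0.892), SEMA3C (1.28) and COL7A1 (1.32), and nearest to ALDH1A3 were TIMP3 (1.48), ADAMTS15 (1.94) and SEMA3C (2.46). TIMP3, an inhibitor of matrix metalloproteinases, changed by 6.12, 0.32 and 1.28. No gene searched came closer to ALDH1A3 than 1.48 over the 3 lines together. ADAMTS15 shared its 3 signs, with 5.50, -1.34 and 3.34 beside 6.39, -1.10 and 1.63 for ALDH1A3. The widest gap between these genes was in A673.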

How the data were processed

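RNA was measured by stranded messenger RNA sequencing in 18 libraries. The deposited TC-32 and A673 values are expected counts (RSEM, by the table names), and the deposited TC-71 values are whole counts (Subread, by its table name), none of them scaled to depth. Per the submitters' processing notes, cutadapt 4.4, STAR 2.7.3, featureCounts, Subread 2.0.3 and limma 3.38.3 were used on GRCh38 (hg38), with no role or order given. The strand setting, the annotation release and any filter are not given in the sources used here. The line of TC-32 and TC-71 columns rests on the table name.

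Expected counts were rounded to whole numbers. Models were fitted within a line with edgeR 4.0.16 in R 4.3.3 (filterByExpr, TMM, robust dispersion, quasi-likelihood F-test), with Benjamini-Hochberg adjustment over all genes tested and calls at an adjusted p under 0.05, and all adjusted p-values without another tool named are edgeR's. Log2 fold changes carry a prior count of 0.125. Differences between lines were interaction contrasts over 6 groups. CPM were TMM-scaled, and RPKM divided them by merged exon length from GENCODE 44, in which 57754 of 58336 identifiers were found. A count of 0 allows up to 3 counts, and such limits and intervals cover counting error only.

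The tests were tested on simulated data, in which far fewer genes changed than were called here. The members and lists were chosen with earlier results of these data known. Named besides the members were FLI1, wider genes called the same way in all 3 lines at a mean log2 CPM of at least 1, the 2 called wider genes of largest change per line, and the 3 genes nearest to each of the 3 members of largest mean change. Some genes that this rule names are not reported here. Other settings tried were DESeq2 1.42.0 and limma-voom (limma 3.58.1) as tools, RLE factors and library size alone as scaling, no filter or a mean of 10 counts or more as filter, expected counts left unrounded, a replicate block, each library left out in turn, and, for differences, the 12 libraries compared alone. Over 18 replicate pairs the lowest Pearson correlation across genes was 0.998, on log2(CPM + 0.5), and a chi-square divided by its degrees of freedom was at least 2.45, so no pair agreed within sampling noise.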

Additional observations from a re-analysis of the deposited data

Results flagged for a closer look

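By edgeR's interaction contrast, the response to siFLI1 was not the same between lines for these members, given as differences of log2 fold changes. From TC-32 minus A673 they were ALDH1A3 4.79, ALDH1A2 3.88 (8.25 without TC-32 siNeg replicate 2, which held all 3 siNeg counts), CRABP2 3.87, CYP26B1 3.40, RARA 1.27, RARG 1.07 and ALDH1A1 -1.69. From TC-32 minus TC-71 they were ALDH1A3 7.48, CRABP2 5.89, CYP26B1 2.69, CRABP1 1.11, RARA 0.62, RARG 0.44 and ALDH1A1 -2.43. From A673 minus TC-71 they were ALDH1A3 2.69, CRABP2 2.02, CRABP1 1.33, RARG -0.64, RARA -0.65, CYP26B1 -0.71 and ALDH1A1 -0.74. ALDH1A3, CRABP2, CYP26B1, RARA, RARG and ALDH1A1 differed in each of the 3 pairs of lines. FLI1 also differed in each pair, by 1.08, 0.43 and -0.65 in the same order. The part of this unequal knockdown was not tested. Groups of 3 libraries were too small for a test of outlying libraries.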

How the results depend on the processing

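The number of members called over the alternatives was 8 to 9 (TC-32), 6 to 7 (TC-71) and 9 (A673), and the number whose response differed was 7 to 9 between TC-32 and A673, 6 to 8 between TC-32 and TC-71 and 7 to 8 between A673 and TC-71. Of the members' changes under single alternatives, 347 kept direction and side of the threshold, 7 lost the call and 2 turned sign, both for the uncalled CRABP2 in TC-71: -0.11 without siNeg replicate 3 and -0.0072 without siFLI1 replicate 2, against up to 0.15 with another library left out. All 7 lost calls were of CRABP1, 3 in TC-32 and 4 in TC-71, and the cause was not tested. Of the differences between lines, 553 kept theirs, 13 gained a call and 1 lost it; ALDH1A2 between TC-32 and TC-71 gained one with DESeq2 (5.60, adjusted p = 0.00770) and limma-voom (5.52, adjusted p = 2.76e-05). In A673, scaling by library size alone put the median over all genes at -0.11 in place of -0.0066 (log2), and no member changed sign with it. Wider retinoid genes called were 34 to 41, 25 to 29 and 38 to 42.

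Replicate numbers did not pair the libraries: same-numbered libraries correlated between -0.26 and 0.058 in their deviations from group means. With the replicate number as a block, 89 results kept their call and 1 lost it (MEIS1 in TC-71, -0.14, adjusted p = 0.0654), and the genes called over a whole table were 13053 in place of 13203 (TC-32), 12048 in place of 12283 (TC-71) and 12467 in place of 13096 (A673).

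Depth limits RARB and ALDH1A2 most, with 25 (TC-32), 1 (TC-71) and 24 (A673) siNeg counts of RARB, each over 3 libraries.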
